A study of Nicotiana tabacum with 6 samples.

Results

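In a tobacco BY-2 line with an inducible Arabidopsis PIN5 gene (AtPIN5), 49 of 69492 quantified index entries were well expressed without induction and stood at no more than 0.333 of that level in every induced library. They are the Nitab4.5 gene models with 10 to 300 TPM in each of 3 DMSO libraries whose highest EST value was at most 0.333 times the lowest DMSO value. TPM is a level corrected for transcript length and library size. The members were thus chosen by their TPM in all 6 libraries, so their fall is described here and not tested. A further 10036 gene models lay in the same DMSO window and did not meet the EST limit.

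BY-2 is a fast-dividing suspension culture of Nicotiana tabacum cv. Bright Yellow 2, kept in the dark in liquid medium with the synthetic auxin 2,4-D. Libraries named EST came from cells of the AtPIN5 line given 1 µM β-estradiol in DMSO for 48 h from the start of a subculture interval of 7 days. DMSO libraries came from cells of the same AtPIN5 line given the solvent only. Both groups therefore carry the transgene, no line without it is compared here, and the labels do not say whether the line is 1 clone. An effect of estradiol itself cannot be told apart from one of AtPIN5. Each group has 3 labelled biological replicates. Novogene sequenced EST 1 and all DMSO libraries, and IAB (Institute of Applied Biotechnologies) sequenced EST 2 and EST 3. EST 2 and 3 against DMSO is therefore also a contrast of companies.

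Auxin is a growth hormone that BY-2 cells need for division, and PIN proteins are carriers that move it across membranes. PIN5 differs from the PIN carriers of the plasma membrane in that it sits at the endoplasmic reticulum, where it takes part in the distribution of auxin inside the cell. Estradiol-inducible systems use a synthetic transcription factor that binds its promoter when the hormone is present, so the uninduced culture serves as the control. Tobacco is an allotetraploid, and many genes exist as near-identical copies from its parental genomes, between which short reads can often not be assigned.

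AtPIN5 itself stood at 23.99, 95.4 and 341 TPM in EST 1, 2 and 3, against 1.51, 0.387 and 0.942 TPM in DMSO 1, 2 and 3. Libraries held 11776234 to 17281241 estimated reads in EST and 13136714 to 16483904 in DMSO. The Nitab4.5 identifiers are not paired with gene names in the files, and 0 of the 49 matched the reference gene table at hand, so no function is given for any member and the cell type could not be checked against marker genes. Members are called here by their rank and transcript length. Rank 1 has the smallest ratio of highest EST to lowest DMSO TPM, and rank 49 the largest.

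As a group, the 49 gene models made up a small part of the transcriptome, and most of that part was gone in EST. Their summed level was 275, 264 and 306 TPM in EST 1, 2 and 3, against 1718, 2375 and 2349 TPM in DMSO 1, 2 and 3. In reads, they took 0.0152%, 0.0131% and 0.0162% of the EST libraries, against 0.0891%, 0.1099% and 0.113% of the DMSO libraries. The EST sums lie close together, whereas DMSO 1 is below DMSO 2 and 3. In bulk RNA, fewer cells of a kind and less RNA per cell cannot be told apart. The median member had 2.76, 3.15 and 3.37 TPM in EST 1, 2 and 3, against 22.8, 28.1 and 31.4 TPM in DMSO 1, 2 and 3. On the log2(TPM + 1) scale the median difference between group means, EST minus DMSO, was −2.64 over the members and −0.13 over all 10085 gene models of the DMSO window.

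**Figure D1:**
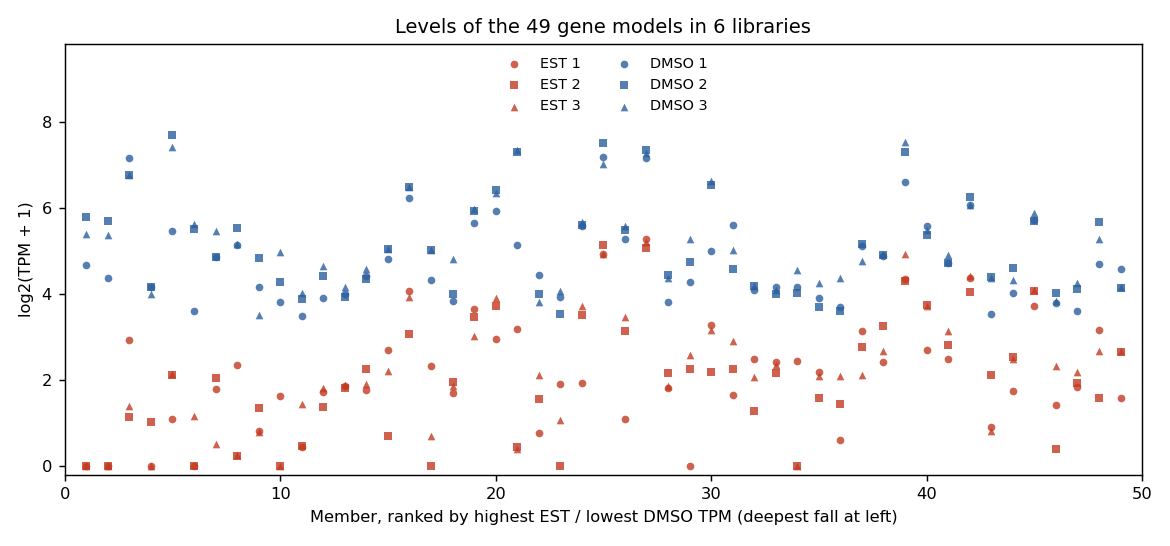
Level of each member as log2(TPM + 1), 1 point per library, with members ranked on the x axis by the ratio of highest EST to lowest DMSO TPM. EST points (red) lie below DMSO points (blue) for every member, as the rule requires, and the median EST 1 level is 2.76 TPM against 22.8 TPM in DMSO 1.

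The word "lost" holds for few of them. Only 2 members, ranks 1 and 2, had 0 reads in every EST library, and these were also the only ones under 1 TPM in all 3. Another 7 had 0 reads in 1 or 2 EST libraries, which makes 9 with a 0 in at least 1. By contrast, 30 members kept 1 TPM or more in every EST library, and 11 kept over 10 TPM in at least 1. Most lay near the limit, with a ratio over 0.25 in 28 members and up to 0.1 in 5. The 3 members just inside had ratios of 0.318, 0.322 and 0.323, and the 3 gene models just outside had 0.334, 0.336 and 0.339. There were 37 gene models of the window with a ratio between the limit and 0.4.

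Rank 1, Nitab4.5_0002781g0030.1, is a gene model of 183 bases. It had 0 TPM in EST 1, 2 and 3, against 24.3, 54.0 and 40.6 TPM in DMSO 1, 2 and 3. These levels rest on 0 reads in each EST library, against 20, 28 and 25 reads in DMSO 1, 2 and 3. It was thus seen in every DMSO library and in no EST library, but from few reads. Against a floor of 3 reads over the EST group it was at least 23.9-fold lower in EST in CPM, which is reads scaled to library size with no length correction (at least 14.5-fold without EST 2 and 15.8-fold without EST 3). The floor covers counting error only. Rank 2, of 240 bases, is of the same kind. It had 0 reads in EST 1, 2 and 3, against 21, 31 and 32 reads in DMSO 1, 2 and 3, which is at least 27.5-fold lower in EST (at least 16.7-fold without EST 2 and 18.2-fold without EST 3).

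Rank 3, of 880 bases, had the smallest ratio among members with at least 100 reads in every DMSO library. It had 6.61, 1.20 and 1.64 TPM in EST 1, 2 and 3, against 140, 108 and 107 TPM in DMSO 1, 2 and 3. The reads were 89, 23 and 28 in EST, against 2309, 1225 and 1400 in DMSO. In CPM, EST held 0.0289 of the DMSO level, with a counting interval of 0.0243 to 0.0342. The exact Clopper-Pearson 95% interval covers counting error only, here and below. All DMSO libraries were high and of similar level, and EST 1 kept several times the level of EST 2 and 3.

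Rank 5, of 540 bases, had 1.15, 3.35 and 3.39 TPM in EST 1, 2 and 3, against 42.8, 206 and 169 TPM in DMSO 1, 2 and 3. Here DMSO 1 was far below DMSO 2 and 3, and EST 1 was below EST 2 and 3. Rank 21, of 834 bases, had 8.03, 0.354 and 0.324 TPM in EST 1, 2 and 3, against 33.9, 155 and 161 TPM in DMSO 1, 2 and 3. In that member DMSO 1 was again low, but EST 1 was the highest EST library. Rank 30, of 1268 bases, had 8.64, 3.57 and 7.97 TPM in EST 1, 2 and 3, against 30.8, 91.7 and 97.9 TPM in DMSO 1, 2 and 3. These 3 share the low DMSO 1.

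Other members were even within both groups. Rank 13, of 837 bases, had 2.63, 2.50 and 2.70 TPM in EST 1, 2 and 3, against 14.9, 14.2 and 16.7 TPM in DMSO 1, 2 and 3. Its reads, 31, 37 and 34 in EST, against 215, 135 and 181 in DMSO, were whole numbers in every library, so none was divided between similar entries. The longest member, rank 33 with 3721 bases, had 4.31, 3.50 and 4.11 TPM in EST 1, 2 and 3, against 16.8, 14.98 and 15.97 TPM in DMSO 1, 2 and 3. It is also among the most deeply covered, with 701 reads in the EST group, against 3232 in the DMSO group.

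The member with the highest mean DMSO level was Nitab4.5_0004427g0020.1, rank 27, with 447 bases. It had 37.8, 32.3 and 35.7 TPM in EST 1, 2 and 3, against 142, 161 and 155 TPM in DMSO 1, 2 and 3. It averaged 35.3 ± 2.80 TPM in EST and 152.5 ± 9.92 TPM in DMSO (SD, n = 3 each). This gene model was reduced and stayed clearly expressed. The EST and DMSO libraries each lay within a narrow range. Its CPM over the EST group was 0.290 of that over the DMSO group, with a counting interval of 0.260 to 0.322. Library by library, it missed the limit of the rule in CPM. There its highest EST library, EST 1, reached 0.357 of its lowest DMSO library, DMSO 3, against a ratio of 0.267 in TPM. Its reads were not whole numbers in DMSO 1 and 3 (588.57 and 527.206), so reads could be divided with a near-identical copy.

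The members were shorter than the gene models they were drawn from. The median length was 432 bases over the 49 members (quartiles 294 and 876) and 1069 bases over the window (quartiles 738 and 1570). Gene models of up to 300 bases made up 32.7% of the members and 4.35% of the window. The share of gene models that met the rule was 3.64% (16 of 439) up to 300 bases, 1.52% (12 of 791) above 300 and up to 500 bases, 0.393% (13 of 3310) above 500 and up to 1000 bases and 0.144% (8 of 5545) above. With the groups exchanged, 378 of 9410 gene models (4.02%) met the rule, and their median length was 895.5 bases. The exchanged share was 6.82%, 7.09%, 4.81% and 2.96% in the same 4 classes, a much flatter course over length.

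In EST 2 and 3, effective length relative to DMSO also fell with transcript length, while in EST 1 it did not fall steadily. Effective length is about the number of start positions that Salmon allows a fragment within a transcript. It is estimated for each library, and TPM divides reads by it. For window gene models of up to 300 bases, the median effective length was 0.957, 2.48 and 2.35 times the DMSO mean in EST 1, 2 and 3. Above 300 and up to 500 bases it was 1.33, 1.55 and 1.56 times, so EST 1 was raised there as well. Above 500 and up to 1000 bases it was 1.14, 1.27 and 1.26 times, and above 1000 bases 0.891, 1.19 and 1.19 times. A greater effective length gives, by that division, a lower TPM for the same reads. Over all window gene models of up to 300 bases, the median level relative to the DMSO mean was 0.917, 0.463 and 0.518 in TPM and 0.925, 0.927 and 0.972 in CPM, in EST 1, 2 and 3. Above 300 and up to 500 bases it was 0.666, 0.737 and 0.839 in TPM and 0.911, 0.886 and 1.03 in CPM, with EST 1 lowest in TPM.

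**Figure D2:**
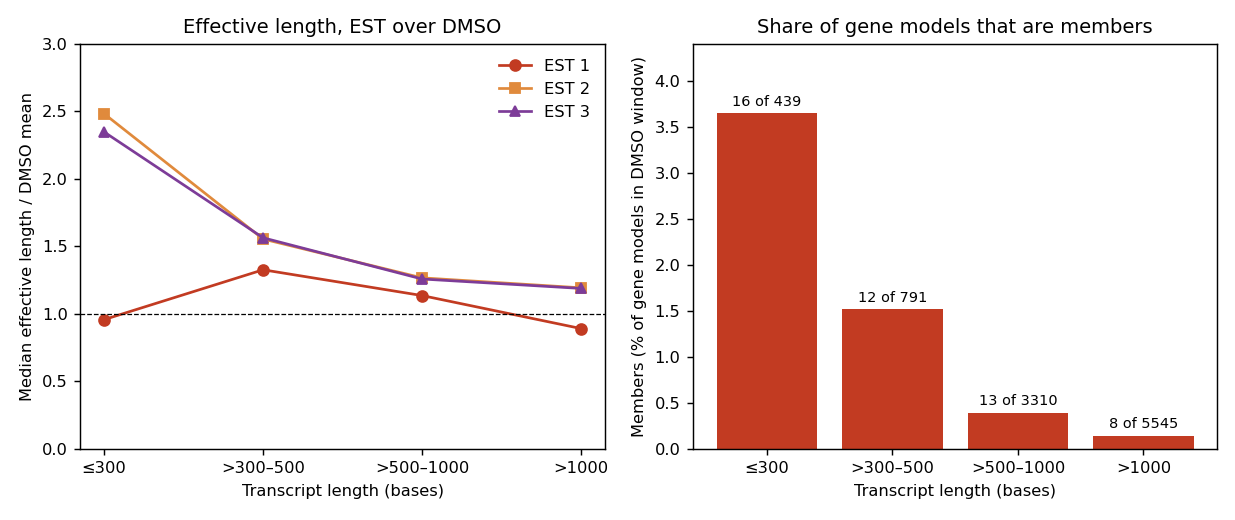
Left, median effective length of the gene models in the DMSO window relative to the DMSO mean, by transcript length class and EST library. Right, share of the window's gene models that are members, in percent, with counts above the bars: both the effective length in EST 2 and 3 (2.48 and 2.35 times DMSO) and the share of members (3.64%) are highest up to 300 bases.

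The members were therefore also described in CPM. The highest EST library was at most 0.333 of the lowest DMSO library in 30 of the 49 members on that scale. By length class these were 6 of 16 members up to 300 bases, 5 of 12 above 300 and up to 500 bases, 11 of 13 above 500 and up to 1000 bases and 8 of 8 above. The median ratio of highest EST to lowest DMSO was 0.262 in TPM and 0.398 in CPM for members of up to 300 bases. For those above 1000 bases it was 0.284 and 0.272. The members over 500 bases thus had nearly the same fall on both scales, and many shorter ones had a smaller fall in reads.

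Each EST library was also set against the DMSO libraries on its own. Relative to the lowest DMSO library, the median member had 0.187, 0.208 and 0.245 of the CPM in EST 1, 2 and 3. The limit of 0.333 was met on this scale by 42, 39 and 35 of the 49 members in EST 1, 2 and 3. Of the 16 members up to 300 bases, 14 met the limit in CPM in EST 1. The rule used these libraries, so the counts are a description, and the part of company and effective length in the fall was not tested.

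Examples show how far the scales part. Rank 25, of 279 bases, had 29.6, 34.2 and 29.3 TPM in EST 1, 2 and 3, against 145, 179 and 129 TPM in DMSO 1, 2 and 3. Its reads were 27.8, 90.3 and 62.9 in EST, against 179, 133 and 119 in DMSO. Its effective length was 44, 110 and 103 bases in EST, against 42, 33 and 36 bases in DMSO. TPM put all EST libraries at a similar low level, whereas in reads only EST 1 was as low.

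Rank 31, also of 279 bases, had 2.13, 3.79 and 6.53 TPM in EST 1, 2 and 3, against 47.7, 22.9 and 31.4 TPM in DMSO 1, 2 and 3. Its reads were 2, 10 and 14 in EST, against 59, 17 and 29 in DMSO. On CPM its highest EST library reached 0.728 of its lowest DMSO library, against 0.286 in TPM. Over the group sums, EST held 0.253 of the DMSO CPM, with a counting interval of 0.158 to 0.391.

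**Figure D3:**
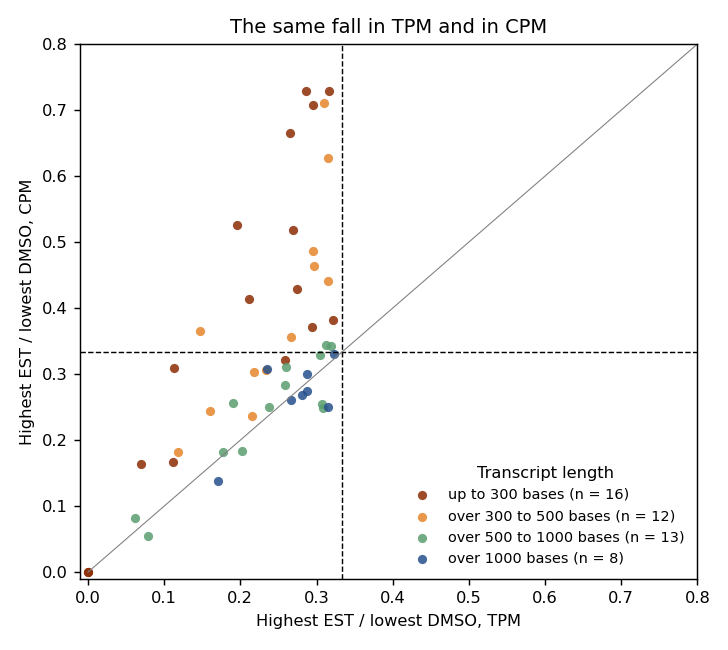
Ratio of the highest EST to the lowest DMSO value for each member in TPM (x axis) and in CPM (y axis), coloured by transcript length, with dashed lines at 0.333 and a grey line of equality. Members above 1000 bases lie near the grey line (median 0.284 and 0.272), while several of up to 300 bases lie far above it (median 0.262 and 0.398).

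Depth sets how well single members are known. In the DMSO libraries, members had 6.95 to 2309 reads each, and 25 had at least 100 in every DMSO library. Another 14 had fewer than 50 reads in every one of the 6 libraries, 11 of them up to 300 bases long. Over group sums, EST held a median of 0.196 of the DMSO CPM, with a range over the members of 0 to 0.477. The counting interval reached 0.333 or more for 13 members, 9 of them up to 300 bases long. These reads come from the libraries that chose the members, so the intervals describe precision and test nothing.

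Whole-number estimates were more common among the members than in the window. A library with no reads counts as whole. Estimates were whole numbers, within 0.0015 reads, in all libraries for 21 of 49 members (42.9%) and for 511 of 10085 window gene models (5.07%). With the groups exchanged, the share was 24.9% (94 of 378), so it was also above the window there. Whole estimates were found in 10 of 16 members up to 300 bases and in 0 of 8 above 1000 bases. Length and depth differ between the members and the window, and their part in this share was not tested. For the other 28 members, reads could be divided with a near-identical copy, and their single values are uncertain.

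No pair of members sat on the same scaffold by the numbers in their identifiers, which gave 49 different scaffolds for 49 members. The gene models next to them on a scaffold, taken in identifier order and with a mean of at least 1 TPM, numbered 51 and flanked 35 members. None of the 51 was a member. Their median log2 difference, EST minus DMSO, was −0.35, against 0.06 over all 33179 entries at that level. Among the 51, 10 (19.6%) had every EST library below every DMSO library, against 15.3% of all entries. This share is near that of all entries.

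Within the DMSO group, the place of DMSO 1 depended on the scale. In TPM it was the lowest DMSO library for 32 of 49 members (65.3%) and the highest for 7 (14.3%), against 42.9% and 47.3% of window gene models. In CPM it was the lowest for 21 members (42.9%) and the highest for 18 (36.7%), against 36.7% and 55.0% of the window. The median ratio of DMSO 1 to the mean of DMSO 2 and 3 over the members was 0.852 in TPM and 1.00 in CPM. DMSO 1 stood under 0.5 of that mean in TPM in 5 members (10.2%) and in 2.81% of the window. DMSO 2 and DMSO 3 differed by a median of 1.14-fold over the members and 1.06-fold over the window. DMSO 2 and 3 thus lie close together, and counting them as separate replicates can understate the spread.

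The level of AtPIN5 was smallest in EST 1 and largest in EST 3, while no single EST library was the lowest for most members. EST 3 was the lowest in TPM for 7 members, EST 1 for 19 and EST 2 for 17, with ties at 0 in the rest. EST 3 was the highest for 19 members (38.8%), EST 1 for 17 (34.7%) and EST 2 for 11 (22.4%). The highest library in the window was EST 3 for 39.8%, EST 1 for 36.5% and EST 2 for 23.7%, so these shares are near each other. In the window the lowest library was EST 1 for 49.3%, EST 2 for 26.5% and EST 3 for 24.1% of gene models. With 1 library at each AtPIN5 level, and EST 1 from another company than EST 2 and 3, no relation was tested.

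The rule caps all EST libraries alike and sets no order among them, so EST 2 and 3 were also compared with EST 1. In edgeR's quasi-likelihood fit over all 33956 gene models that passed the filter on low counts, EST 2 and 3 differed from EST 1 in 3 of the 48 members tested, against 4.15% of all entries (Benjamini-Hochberg adjusted p under 0.05). EST 1 is a single library, so the fit estimates the spread among the other libraries and assumes that EST 1 varies like them. The rule also keeps all EST levels of the members low. With 3 calls, the members' share is near that background. At an unadjusted p under 0.05 there were 14 members, against 27.7% of all entries. DESeq2 called 8, against 12.0% of all entries. Differences ran both ways, with 28 of 48 members higher in EST 2 and 3. Company, culture and date of EST 1 and of EST 2 and 3 cannot be told apart.

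The 3 called members, named after their values were seen, differed in what was left after induction. Nitab4.5_0004969g0070.1, rank 26 with 1038 bases, had 7.80 and 10.03 TPM in EST 2 and 3 and 1.12 TPM in EST 1, against 37.7, 43.4 and 46.8 TPM in DMSO 1, 2 and 3. Its fitted log2 difference, EST 2 and 3 minus EST 1, was 2.77. Nitab4.5_0007388g0050.1, rank 8 with 423 bases, had 0.184 and 0.205 TPM in EST 2 and 3 and 4.05 TPM in EST 1, against 34.2, 45.2 and 34.5 TPM in DMSO 1, 2 and 3. Its log2 difference was −4.13. Rank 3, Nitab4.5_0001422g0050.1, with the values given above, had a log2 difference of −2.28. These differences rest on 1 library on the EST 1 side. None of the 3 calls was left without EST 2 or without EST 3, where edgeR called 0 of 49 members and 0 of all entries. At an unadjusted p under 0.05 there were 15 members without EST 2, against 22.9% of all entries, and 15 without EST 3, against 7000 of 35019 entries. Without DMSO 2 and without DMSO 3 the edgeR count was 1 each, against 1.14% and 1.25% of all entries. Without DMSO 1 it was 10 of 48, against 24.2% of all entries.

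**Figure D4:**
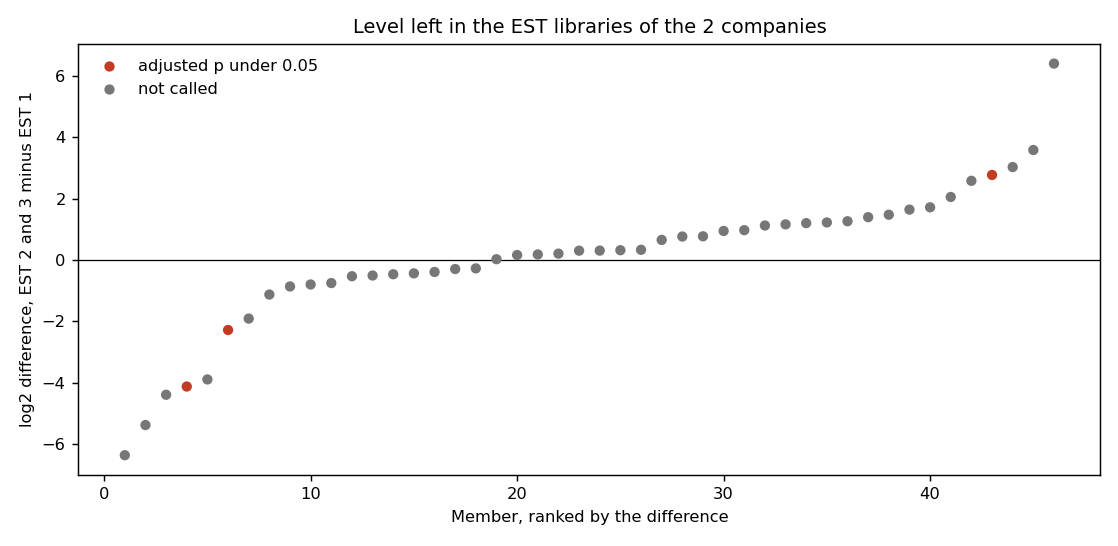
Difference in log2 reads between EST 2 and 3 (IAB) and EST 1 (Novogene) for the 46 members with reads in EST and past the count filter, ranked by size, with members called by edgeR in red. Differences lie on both sides of 0, and the called ones are 2.77, −2.28 and −4.13.

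For completeness, the treatment contrast that chose the members was also fitted. With company as a covariate, edgeR called 37 of the 48 members tested lower in EST, against 11.2% of all entries. Without the company term it called 36, against 3.17% of all entries. Nothing is read from these counts, since the rule used these same libraries. The other 11 tested members missed an adjusted p of 0.05 in the fit with company, and rank 23, of 255 bases, did not pass the filter on low counts. The company-adjusted count was 16 without DMSO 2, against 752 of 35553 entries in all. It was 19 without DMSO 3, against 755 of 35379 entries in all.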

How the data were processed

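Total RNA of EST and DMSO cells was sequenced. The submitters' processing notes name Trimmomatic, a read trimmer, and Salmon 1.3.0, which estimates reads per transcript. Its options, the read layout and the strand setting are not given in the sources used. Per the file headers, each deposited file holds an estimated count (not normalized), a TPM value and an effective length in bases (other units) per entry: 69491 Nitab4.5 gene models and AtPIN5. The TPM values deposited by the authors use each library's own effective lengths.

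The rule was applied to TPM. CPM values were computed here as estimated counts scaled to the library total. For tests, counts were rounded, filtered with filterByExpr and scaled by TMM. edgeR 4.0.16 (R 4.3.3) quasi-likelihood fits with company and treatment gave Benjamini-Hochberg adjusted p-values over all entries tested. DESeq2 1.42.0 was an alternative. The fits were tested on simulated data with independent libraries, 1 common spread and 8-fold changes in entries above a low read count. Such data do not cover nearly coinciding libraries or members with few reads, so nothing is concluded for those. Since nothing says how separate the cultures were, a p-value here reflects spread among libraries that may be technical. Members and comparisons were chosen with earlier results of these data known.

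Members named by plan had the smallest ratio or the highest DMSO mean, since 0 of 69491 identifiers matched the reference table (assembly ASM71507v2). The 3 members called by edgeR between EST 2 and 3 and EST 1 were named as well, after their values were seen. The gene lists planned by description could not be applied. Replicate numbers are shared between groups, and same-numbered deviations of log2 CPM correlated at 0.45, 0.18 and 0.40 for replicates 1, 2 and 3, so the number was also fitted as a block. DMSO 2 and 3 nearly coincide, which favours such values.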

Additional observations from a re-analysis of the deposited data

How the results depend on the processing

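The number of members depends on the limits: 175 gene models met a ratio of 0.5, 21 a ratio of 0.25, 82 a window from 5 TPM and 24 one from 20 TPM, and 21 members had whole estimates only. Leaving out 1 library, which loosens the rule, gave 55 to 216, with 176 without EST 1, 139 without EST 3 and 216 without DMSO 1. With CPM in the ratio, 42 gene models met the limit, 30 of them members. With TMM-scaled reads per kilobase of annotated length in both the window and the ratio there were 41, of which 22 were members. The median log2 difference of the members in TPM was −2.46 for members over 300 bases and −2.76 to −2.50 without 1 library. On TMM-, DESeq2- and upper-quartile-scaled CPM, with the same pseudocount of 1, it was −1.83, −1.82 and −1.85. A pseudocount of 1 shrinks differences between low values. Rank 1, for example, had 1.21 to 2.13 CPM in the DMSO libraries. The TMM-scaled edgeR fit without company, which does not add 1 to CPM, gave a median of −2.35 over the 48 members tested. For Nitab4.5_0004427g0020.1 the log2 difference was −1.69 on TMM-scaled CPM with the pseudocount of 1. The pseudocount was not varied for Nitab4.5_0002781g0030.1, which has 0 reads in EST.

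Members called lower in EST numbered 18 with DMSO 2 and 3 summed and 16 to 37 without 1 library; with the replicate block they numbered 31, and 39 with the block and no company term. Of all 33956 entries tested, 3814 were called lower, and 1075 with no company term. With the replicate block they numbered 2883, and 3079 with the block and no company term. All entries called lower numbered 791 with DMSO 2 and 3 summed and 752 to 7608 without 1 library. Between EST 2 and 3 and EST 1, 8 members were called by DESeq2, 7 with no filter, 1 with DMSO 2 and 3 summed, 2 with the replicate block and 0 to 10 without 1 library. All entries called there numbered 1410, and 562 with the replicate block, 4084 by DESeq2, 3057 with no filter, 402 with DMSO 2 and 3 summed, 2168 with effective lengths as an offset and 0 to 8568 without 1 library. The highest of these counts, 10 of 48 members and 8568 of 35447 entries, were both without DMSO 1. The offset, the CPM ratio and the split at 300 bases were chosen after seeing the data. Without EST 1 the company-adjusted fit could not be made, since its treatment term compares EST 1 alone with DMSO. The causes of these shifts were not tested.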
